A study of Mus musculus with 8 samples.

Results

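The RNAs described here come from 6 genes that astrocytes are known for, Slc1a3, Slc1a2, Gja1, Aldh1l1, Clu and Cd44. They were found as every probe whose gene symbol in the platform annotation is 1 of these names, which gave 11 of the 25697 probes on the arrays. Only 11692 probes have 1 gene symbol here, all of them with a detection p under 0.05 on 4 or more arrays. Dimmer probes of these genes could not be found. There was 1 named probe each for Slc1a3, Gja1 and Clu, 2 for Cd44, and 3 each for Slc1a2 and Aldh1l1. To be tested, a probe had to be detected on both arrays of some group, with a detection p-value under 0.01. That left 10 of the 11 probes, and all 6 genes stood among the 8107 genes tested. The probe that was left out, Slc1a2 probe ILMN_2642339, was detected on 1 fNSC array and 1 miPS-NSC array only.

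The arrays, 8 Illumina BeadChips, carried RNA of cultured mouse cells in 4 groups of 2. Neural stem cells (NSCs), dividing cells that can give rise to neurons, astrocytes and oligodendrocytes, made up 3 groups. The fNSC group was titled female and had the genotype OG2ROSA with the number P27 in its sample names, and the pNSC group was parthenogenetic, from an egg activated without sperm, with the genotype OG2+/- and P18. The miPS-NSC group had the genotype OG2+/- and P8, and its name is read here as NSCs derived from induced pluripotent stem cells, although its sample names read pips-NSC and neither name is explained in the labels. Mouse embryonic fibroblasts (MEF) were the fourth group, with OG2+/- in the labels but OG2ROSA1 in the column names of the signal table. All groups were labelled female, and all carried the same description of NSC medium with the growth factors EGF and bFGF, MEF included. The groups therefore differ in genotype and in the P number as well as in origin. In every group 1 array carries an unexplained suffix in its title. The labels do not state whether both arrays of a group stem from separate cultures, and the p-values thus cover no more than the variation from array to array, which may be technical.

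Astrocytes take up glutamate released at synapses, share ions and metabolites through gap junctions, and secrete lipid carriers and chaperones. Neural stem cells of the radial glia type are themselves close to astrocytes and use several of the same genes, among them the glutamate transporter gene Slc1a3. Growth in EGF and bFGF is known to keep neural stem cells dividing, while signals of the BMP and LIF families are known to drive them towards astrocytes.

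The labelled identities were checked on marker lists. Of 22 listed markers of neural stem cells and radial glia, 15 were tested. All 15 were detected on each of the 6 NSC arrays, against 7 and 8 on the MEF arrays. All 11 tested fibroblast markers were detected on both MEF arrays, and 6 to 8 on the NSC arrays, where the collagen gene Col1a2 and the collagen crosslinking enzyme gene Loxl1 were detected on none. Col1a2, Loxl1 and S100a4 passed the detection filter through MEF alone. Their detection on both MEF arrays was fixed by the filter and is not counted as support. Gene names here cover only probes with a detection p under 0.05 on 4 or more arrays. A fibroblast gene detected on the 2 MEF arrays alone could therefore not be tested, and 11 of the 21 listed markers were. A neural stem cell marker undetected on all NSC arrays could not be tested either, which favoured the full count of 15. The check carries this selection. Between 10553 and 10902 probes were detected per array. The arrays of a group differed by 0.164 to 0.261 (SD of the log2 difference over genes), and no probe had identical values on them. The probes of the 6 genes rested on 25 to 58 beads per array, with a standard error over beads of 1.96% to 6.64% of the intensity. Values below are normalized intensities on the log2 scale, and the lowest value of a detected probe was 6.13 to 6.29, depending on the array. A gene was called higher or lower when its limma adjusted p was under 0.05 and its difference at least 2-fold. Of all genes tested, 6.57% were called higher and 4.87% lower in pNSC against fNSC. The shares were 8.5% and 5.61% in miPS-NSC against fNSC, and 7.64% and 6.99% in miPS-NSC against pNSC. They apply to each count of calls in a gene list among NSC groups below. The 6 comparisons share arrays, since each group enters 3 of them, so they are not independent of each other.

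Slc1a3 encodes GLAST, a glutamate transporter of radial glia and astrocytes, and its probe ILMN_2634317 was among the brightest in the NSC cultures. Its level was 15.27 and 15.28 on the fNSC arrays, 15.58 and 15.59 in pNSC, 15.65 and 15.43 in miPS-NSC, and 8.79 and 8.61 in MEF. All 6 NSC arrays lay within a narrow band far above both MEF arrays, and both pNSC arrays lay above both fNSC arrays. The level was 6.58 ± 0.106 (limma SE, n = 2 arrays per group) higher in fNSC than in MEF, or 95.5-fold, with 118-fold for pNSC and 115-fold for miPS-NSC. The limma adjusted p was 1.16e-08, 1.03e-08 and 1.19e-08 in these 3 comparisons. In bulk cultures such as these, fewer cells of a type and less RNA per cell cannot be told apart, and this holds for every value below.

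Among the NSC groups Slc1a3 differed little. The difference of pNSC from fNSC was 0.31 ± 0.106 on the log2 scale, 1.24-fold, with a limma adjusted p of 0.0482, and was too small for a call. The difference of miPS-NSC from fNSC was 0.26 (limma adjusted p = 0.0745). The difference of miPS-NSC from pNSC was -0.05, with a 95% interval of -0.30 to 0.20 and a limma adjusted p of 0.727, and the arrays of these groups overlapped. The raw intensities of 35440 to 53930 on the NSC arrays lay below the brightest probe of each of these arrays, 66635 to 68475. No more than 38 of the 25697 probes were brighter than Slc1a3 on any NSC array, against 5998 and 6312 on the MEF arrays.

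Slc1a2 encodes GLT-1, the transporter that carries most glutamate uptake in the adult brain. Its brightest probe, ILMN_3076439, read 8.44 and 8.29 in fNSC, 7.71 and 7.60 in pNSC, 9.86 and 9.81 in miPS-NSC, and 6.06 and 5.79 in MEF, where it was detected on neither array. The 4 groups did not overlap, with miPS-NSC highest, then fNSC, then pNSC. The gene was called higher in miPS-NSC than in fNSC (log2 difference 1.47 ± 0.114, 2.77-fold, limma adjusted p = 6.3e-05) and higher than in pNSC (2.18 ± 0.114, 4.52-fold, limma adjusted p = 1.04e-05). In pNSC it lay 1.63-fold below fNSC (log2 difference -0.71, limma adjusted p = 0.00238), short of a call. Against MEF it was at least 4.34-fold higher in fNSC, at least 2.66-fold in pNSC and at least 12-fold in miPS-NSC. Without background correction the difference of pNSC from MEF was 0.71, and in the authors' values 0.59, which is no call. Leaving out that correction also gave smaller calls of 1.14 for fNSC against MEF, 2.25 for miPS-NSC against MEF and 1.55 for miPS-NSC against pNSC.

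A second Slc1a2 probe, ILMN_3123195, gave the same order of groups. It read 7.66 and 7.56 in fNSC, 7.25 and 7.26 in pNSC, and 9.06 and 8.88 in miPS-NSC, and was not detected in MEF. In the limma fit over probes it was called higher in miPS-NSC than in fNSC (2.57-fold, adjusted p = 5.77e-05) and than in pNSC (3.28-fold, adjusted p = 2.14e-05). The difference of pNSC from fNSC was smaller on this probe, at -0.35. The mean of the neuron markers was also highest in miPS-NSC. The 8 tested neuron markers had a mean level of 9.11 and 8.93 on the miPS-NSC arrays, 7.58 and 7.60 in fNSC, 7.79 and 7.71 in pNSC, and 7.09 and 7.08 in MEF. Of these 8, 2 were called higher and 2 lower in pNSC against fNSC, 3 and 1 in miPS-NSC against fNSC, and 4 and 2 in miPS-NSC against pNSC. Eno2, a neuronal enolase gene (81.2-fold), and Gad1, which encodes a GABA-making enzyme (9.57-fold), were among those higher in miPS-NSC than in fNSC. Eno2, which enters the means above, was also bright in MEF, at 11.1, beside 9.9 in pNSC and 6.5 in fNSC. Syp and Nefm were brightest in pNSC, Elavl4 in fNSC and Stmn2 in MEF. Between 5 and 7 were detected on each NSC array, and Stmn2, which marks young neurons, was detected on none of them. The part of neuronal RNA in the Slc1a2 difference was not tested.

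**Figure D1:**
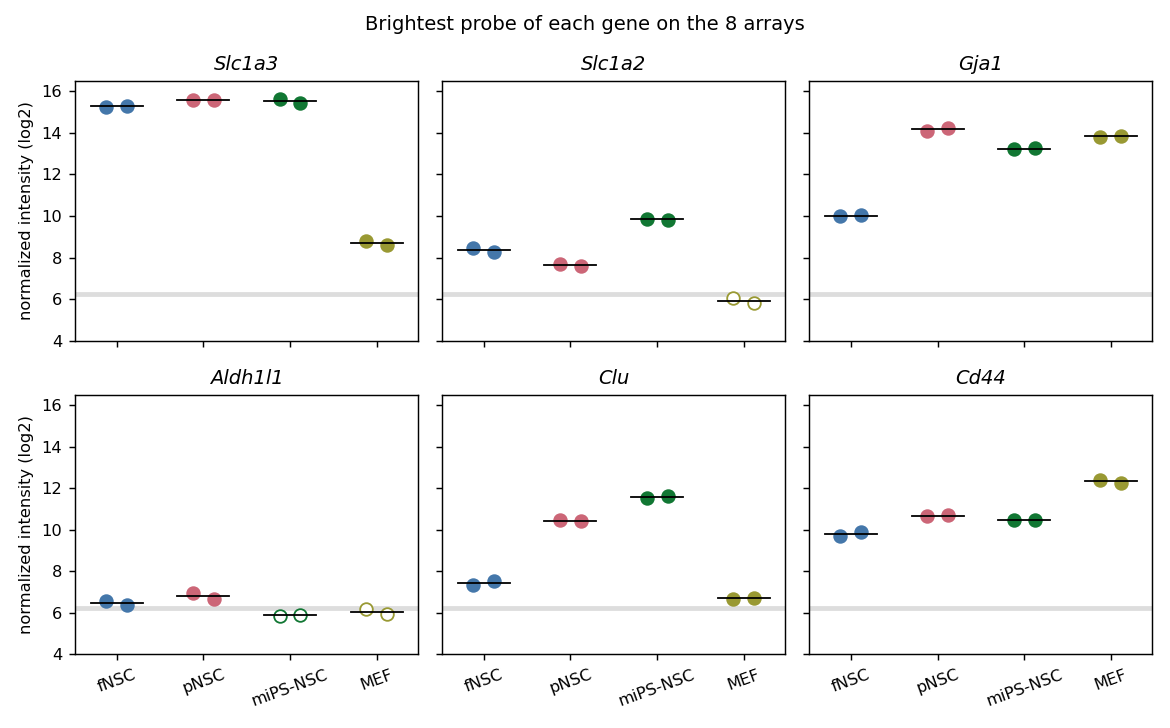
Normalized intensity (log2, vertical axis) of the probe that stands for each of the 6 genes on each of the 8 arrays, by group. Filled points were detected, open points were not, the bar is the mean of 2 arrays, and the grey band spans the lowest detected values of the arrays (6.13 to 6.29). Slc1a3 separates NSCs from MEF, and Gja1 is low in fNSC only among these 4 groups.

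Gja1 encodes connexin 43, the main gap junction protein of astrocytes, which fibroblasts also use. It and Clu showed the widest ranges of the 6 genes among the NSC groups. The probe ILMN_1244291 read 10.01 and 10.02 in fNSC, 14.11 and 14.24 in pNSC, 13.23 and 13.25 in miPS-NSC, and 13.83 and 13.85 in MEF. The fNSC arrays stood apart below all others, and no groups overlapped. Gja1 was called higher in pNSC than in fNSC (log2 difference 4.16 ± 0.082, 17.9-fold, limma adjusted p = 2.63e-07) and in miPS-NSC than in fNSC (3.23 ± 0.082, 9.36-fold, limma adjusted p = 4.62e-07). It was called lower in fNSC than in MEF, 14.2-fold (limma adjusted p = 3.31e-08). The other NSC groups stayed near the fibroblast level, with pNSC 1.26-fold above MEF (limma adjusted p = 0.00688) and miPS-NSC 1.51-fold below it (limma adjusted p = 0.000363), neither a call. Between miPS-NSC and pNSC the difference was -0.93 (1.91-fold lower, limma adjusted p = 0.00011), just short of a call. It reached -1 and became a call without replicate 1 of pNSC.

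Since Gja1 was bright in MEF, fibroblast markers are given beside it. The 11 tested markers had a mean level of 7.29 and 7.24 on the fNSC arrays, 7.36 and 7.41 in pNSC, 8.12 and 8.02 in miPS-NSC, and 12.65 and 12.71 in MEF. Of the 11, 2 were called higher and 1 lower in pNSC than in fNSC, 4 and 1 in miPS-NSC than in fNSC, and 3 and 1 in miPS-NSC than in pNSC. Col6a1, a collagen gene, was called higher than in fNSC in pNSC (9.51-fold) and in miPS-NSC (10.2-fold), and Thy1, which neurons carry too, was at least 11.5-fold higher in miPS-NSC than in fNSC. Twist1, a mesenchymal transcription factor gene, was at least 6.42-fold lower in pNSC than in fNSC. The part of fibroblast-like RNA in the Gja1 values was not tested.

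The gap junction family was otherwise thinly covered. Of 21 listed genes for connexins, pannexins and their ZO scaffold proteins, 5 were tested: Gja1, Gja5, Gjc1, Panx1 and the scaffold gene Tjp1. In pNSC against fNSC only Gja1 was called among these 5, and their median difference was -0.03, beside -0.01 for all genes. For miPS-NSC against fNSC, 1 was higher and 2 were lower, with a median of -0.71 beside -0.04. The lower ones were Panx1, a membrane channel related to gap junction proteins (2.64-fold), and Gja5, which encodes connexin 40 (at least 2.2-fold). Between miPS-NSC and pNSC, Panx1 was again lower, 2.59-fold, the only call among the 5 there, at a median of -0.32 beside -0.03. These values for all genes apply to each list median below.

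Promoters are shown for 1 of the members that differed most among the NSC groups, Gja1, and for the one that differed least, Slc1a3. Each sequence is the 250 bases before the start site of the gene in RefSeq (GRCm38.p6), read in the direction of the gene, with motif matches in capitals. The window of Gja1 lies at chr10:56377050-56377299 on the plus strand, and that of Slc1a3 at chr15:8710808-8711057 on the minus strand.
Gja1: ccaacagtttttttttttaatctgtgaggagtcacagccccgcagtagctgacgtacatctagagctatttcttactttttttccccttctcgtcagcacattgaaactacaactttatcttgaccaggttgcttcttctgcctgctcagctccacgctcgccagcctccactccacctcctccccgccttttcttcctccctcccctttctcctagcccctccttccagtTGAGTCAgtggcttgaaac
Slc1a3: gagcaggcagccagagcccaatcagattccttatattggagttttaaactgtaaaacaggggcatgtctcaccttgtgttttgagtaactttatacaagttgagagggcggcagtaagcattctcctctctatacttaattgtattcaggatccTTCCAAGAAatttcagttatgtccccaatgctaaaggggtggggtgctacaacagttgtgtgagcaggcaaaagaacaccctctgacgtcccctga
The capitals in Gja1 are a match to the AP-1 motif (TGANTCA) 19 bases before the start site, a motif found in 6.75% of 32851 promoter windows of this length. The capitals in Slc1a3 are a match to the STAT motif (TTCNNNGAA) 96 bases before the start site, found in 7.02% of the windows. Both strands were searched for these motifs and for the NFI half-site TTGGC, found in 41.5% of the windows. Promoters were matched for 5 of the 6 genes, all but Clu. Slc1a2 held 1 NFI half-site, and the windows of Aldh1l1 and Cd44 held none of these motifs. A match is a run of letters only, and no binding was measured.

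Aldh1l1 encodes a folate enzyme of the cytosol that is widely used as a marker of astrocytes, and it was dim in every culture. Its brightest probe, ILMN_2706906, read 6.56 and 6.39 in fNSC and 6.98 and 6.69 in pNSC. It read 5.86 and 5.91 in miPS-NSC and 6.21 and 5.93 in MEF, and was detected on none of these 4 arrays. The detected values thus lay within 1 log2 unit of the detection limit. No comparison gave a call. The difference of pNSC from fNSC was 0.36 (limma adjusted p = 0.0729), and miPS-NSC lay at least 1.21-fold below fNSC (limma adjusted p = 0.0105) and at least 1.56-fold below pNSC (limma adjusted p = 0.00118). This probe passed the filter through fNSC and pNSC, so the differences of miPS-NSC from them were favoured by the filter.

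The other Aldh1l1 probes disagreed about MEF. ILMN_2703392 was detected on the pNSC arrays only, at 6.69 and 6.54, and passed the filter through them alone, so no test of it is given. ILMN_3100276 read 6.16 and 6.01 in fNSC, detected on 1 array, then 6.40 and 6.64 in pNSC, 4.93 and 4.93 in miPS-NSC, not detected, and 6.91 and 6.82 in MEF. On this last probe MEF was the highest group, whereas on the brightest probe MEF was not detected. In the limma fit over probes, ILMN_3100276 was called lower in miPS-NSC than in pNSC (at least 1.25-fold, adjusted p = 4.91e-05), than in MEF (at least 1.59-fold, adjusted p = 3.54e-06) and than in fNSC (log2 difference -1.15, adjusted p = 0.000226). Against fNSC no fold is given, since the probe was detected on 1 fNSC array and no miPS-NSC array, which leaves both groups near or below the detection limit. The probe had passed the filter through pNSC and MEF, where it is high, so the calls against these groups were favoured by the filter. Averaging the 3 probes, which carries the same selection, made the gene a call for miPS-NSC against pNSC (log2 difference -1.37) and for miPS-NSC against MEF (-1.04), and turned the sign of fNSC against MEF from 0.41 to -0.16. The level of Aldh1l1 relative to MEF therefore depended on the probe.

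The mean of the oligodendrocyte lineage markers was highest in pNSC. Over 7 tested genes it was 9.84 and 9.75 in fNSC, 10.91 and 10.92 in pNSC, 9.15 and 9.32 in miPS-NSC, and 6.64 and 6.59 in MEF. All 7 were detected on both pNSC arrays, against 6 in fNSC and 4 and 5 in miPS-NSC. None of the 7 was called lower in pNSC against fNSC, and the median of the 7 was 0.42. The 1 called higher was Pdgfra, a receptor gene of oligodendrocyte precursors (at least 25.9-fold), which enters the means above. Pdgfra was brightest in MEF, at 11.94, beside 10.91 in pNSC and 5.46 in fNSC, where it was not detected. In miPS-NSC, Cnp, a myelin enzyme gene, was at 8.99, beside 8.97 in pNSC and 8.55 in fNSC, while 2 were lower in miPS-NSC against fNSC and 4 against pNSC, none higher. Their part in the Aldh1l1 values was not tested. Of 16 tested enzymes and transporters of folate metabolism, 1 was called lower in pNSC than in fNSC and none higher, at a median of -0.10. The called gene was Aldh1l2, the mitochondrial counterpart of Aldh1l1, at 2.37-fold lower. In miPS-NSC Aldh1l2 was the only one called against fNSC, 2.43-fold higher, at a median of -0.30 for the 16. Against pNSC, Aldh1l2 was 5.75-fold higher and Tyms, which makes thymidylate for DNA, 2.02-fold lower, at a median of -0.22. Among the NSC groups Aldh1l2 was thus lowest in pNSC and highest in miPS-NSC.

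**Figure D2:**
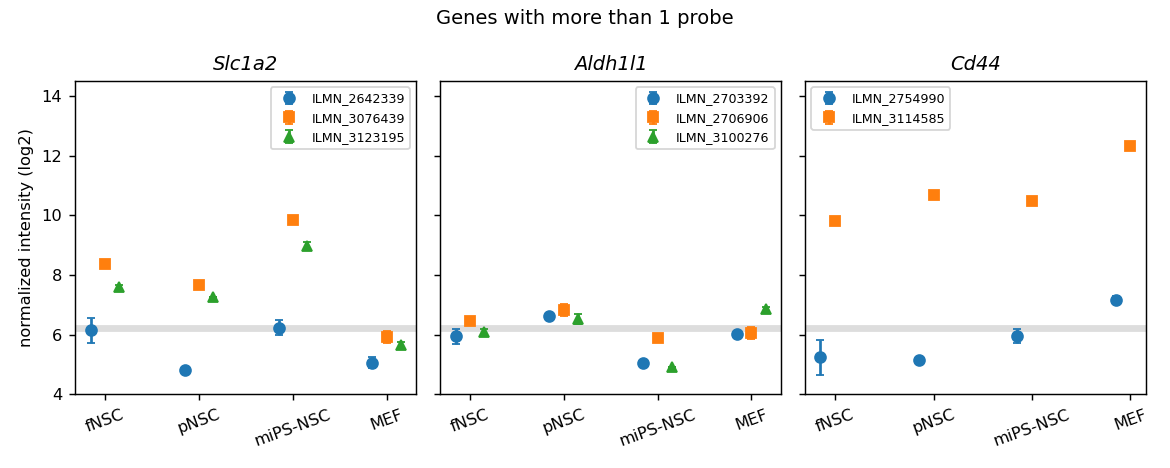
Mean normalized intensity (log2, vertical axis) of each probe of Slc1a2, Aldh1l1 and Cd44 in the 4 groups, with error bars for the SD over 2 arrays and the grey band at the lowest detected values (6.13 to 6.29). The Slc1a2 probes above the band share an order of groups, while the Aldh1l1 probes lie near the band and differ in the place of MEF.

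Clu encodes clusterin, a secreted chaperone that astrocytes release with their lipoproteins. Its probe ILMN_2727153 read 7.34 and 7.52 in fNSC, 10.49 and 10.41 in pNSC, 11.52 and 11.64 in miPS-NSC, and 6.69 and 6.71 in MEF. It was detected on all 8 arrays, and the groups followed each other from MEF to fNSC, pNSC and miPS-NSC with no overlap. Clu was called higher in pNSC than in fNSC (log2 difference 3.02 ± 0.096, 8.13-fold, limma adjusted p = 1.52e-06). It was called higher in miPS-NSC than in fNSC (4.15 ± 0.096, 17.8-fold, limma adjusted p = 4.21e-07) and than in pNSC (1.13 ± 0.096, 2.19-fold, limma adjusted p = 9.67e-05). Clu was therefore the only member called in all 3 comparisons of NSC groups. In fNSC it stayed 1.65-fold above MEF (limma adjusted p = 0.000298), which is no call, against 13.4-fold in pNSC (limma adjusted p = 7.88e-08) and 29.4-fold in miPS-NSC (limma adjusted p = 2.77e-08). The sizes rest on the background step: without it the log2 difference of pNSC from fNSC was 2.21 and that of miPS-NSC from fNSC 3.25, with 2.53 and 3.57 for pNSC and miPS-NSC against MEF, all still calls.

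Of 14 listed clusterin receptors and other secreted chaperones, 5 were tested. In pNSC against fNSC, 1 was higher and 1 lower, at a median of -0.34. The higher one was Apoe, the lipid carrier of astrocytes (at least 35.9-fold), and the lower one Vldlr, a lipoprotein receptor gene (2.2-fold). Between miPS-NSC and fNSC only Apoe was called (at least 10.6-fold higher), at a median of 0.77 for the 5. In miPS-NSC against pNSC, Vldlr was 4.15-fold higher and Apoe 3.38-fold lower, at a median of 0.29. Clu and Apoe thus shared the direction of both calls against fNSC and had opposite directions between miPS-NSC and pNSC.

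Cd44 encodes a cell surface receptor for hyaluronan that marks astrocyte precursors and also many fibroblasts. Its brightest probe, ILMN_3114585, read 9.72 and 9.90 in fNSC, 10.68 and 10.70 in pNSC, 10.47 and 10.47 in miPS-NSC, and 12.42 and 12.26 in MEF. Both MEF arrays lay above all NSC arrays, and both fNSC arrays lay below all others. Against MEF, Cd44 was called lower in fNSC (5.77-fold, limma adjusted p = 4.37e-07), in pNSC (3.12-fold, limma adjusted p = 3.81e-06) and in miPS-NSC (3.65-fold, limma adjusted p = 2.02e-06). The NSC groups differed by less than the call needs. The difference of pNSC from fNSC was 0.89 ± 0.096 (1.85-fold, limma adjusted p = 0.00039), that of miPS-NSC from fNSC 0.66 (limma adjusted p = 0.00126), and that of miPS-NSC from pNSC -0.22 (limma adjusted p = 0.0917).

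The second Cd44 probe, ILMN_2754990, was detected in MEF only, at 7.09 and 7.25. It passed the detection filter through MEF alone, so its difference from the NSC groups is not counted as support. The fibroblast markers given with Gja1 were also highest in MEF, and their part in the Cd44 values was not tested. With the probes averaged, the difference of pNSC from fNSC was 0.39 (limma adjusted p = 0.0812) and that of miPS-NSC from pNSC turned to 0.29, neither a call. In RefSeq (GRCm38.p6) Slc1a2 and Cd44 are neighbours on chromosome 2, with no protein-coding gene between them, yet their levels ran apart: Slc1a2 was highest in miPS-NSC and not detected in MEF, where Cd44 was highest.

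Of 11 tested ligands and partners of CD44, 2 were called higher and 1 lower in pNSC against fNSC, at a median of 0.34. The membrane protease gene Mmp14 was at least 5.27-fold higher and Ezr, which encodes a linker to the cytoskeleton, 2.31-fold higher. In miPS-NSC, 3 were higher than in fNSC and none lower, at a median of 0.32, with Mmp14 at least 5.91-fold and the hyaluronidase gene Hyal1 4.29-fold higher. In miPS-NSC against pNSC 2 were higher and 1 lower, at a median of 0.10, among them Hyal1 (at least 5.15-fold) and the hyaluronan synthase gene Has2 (at least 1.39-fold), both higher. Against MEF 7 of the 11 were lower in each NSC group, with 1 higher in pNSC and none in the other groups. Of all genes, 17.2%, 17.6% and 17.2% were called lower in fNSC, pNSC and miPS-NSC, and 25.9%, 25.8% and 24.8% higher. Vcan and Mmp9, among the 11, were detected in MEF only and passed the detection filter through MEF alone. Their differences from MEF are not counted as support, although the counts of calls include them.

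**Figure D3:**
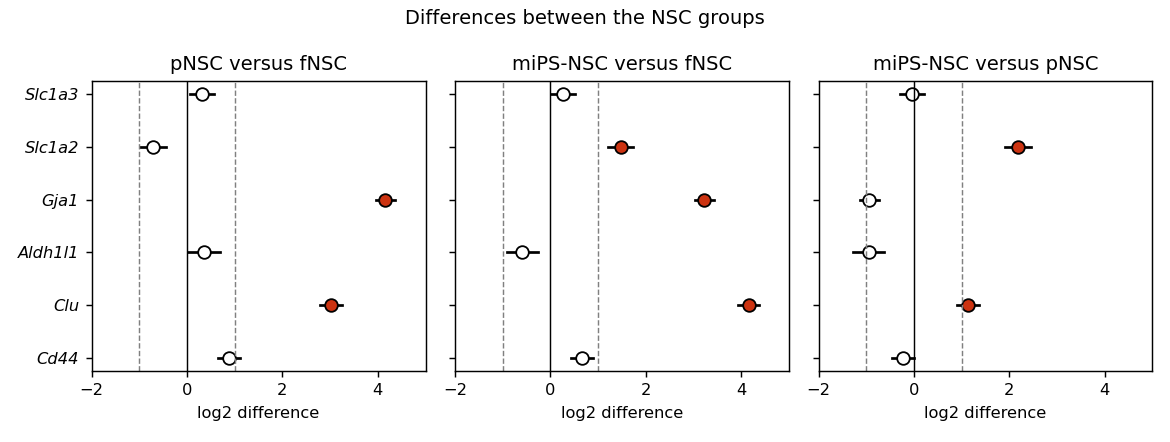
Log2 difference between NSC groups for each of the 6 genes, with 95% confidence intervals from limma; red marks a call, and dashed lines mark a 2-fold difference. Gja1 and Clu lie far above 0 in both comparisons with fNSC, Slc1a2 is a call only where miPS-NSC is compared, and Slc1a3, Aldh1l1 and Cd44 give no call.

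Counted over the 6 genes, pNSC against fNSC gave 2 higher (Gja1 and Clu) and none lower. Of all genes tested, 11.4% were called in that comparison, 6.57% as higher and 4.87% as lower. In miPS-NSC against fNSC 3 were higher (Slc1a2, Gja1 and Clu) and none lower, beside 14.1% of all genes called, 8.5% as higher and 5.61% as lower. In miPS-NSC against pNSC 2 were higher (Slc1a2 and Clu) and none lower, beside 14.6% of all genes, 7.64% as higher and 6.99% as lower. The median log2 difference of the 6 in these comparisons was 0.62, 1.06 and -0.14, beside -0.01, -0.04 and -0.03 for all genes. With 6 genes, these counts are a description.

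Against MEF the genes divided. In fNSC 2 were higher (Slc1a3 and Slc1a2) and 2 lower (Gja1 and Cd44), beside 43.1% of all genes called, 25.9% as higher and 17.2% as lower. In pNSC 3 were higher (Slc1a3, Slc1a2 and Clu) and 1 lower (Cd44), beside 43.4% of all genes, 25.8% as higher and 17.6% as lower. The same 3 genes were higher and Cd44 lower in miPS-NSC, beside 42% of all genes, 24.8% as higher and 17.2% as lower. The median log2 difference of the 6 was 0.57, 1.25 and 1.86 in fNSC, pNSC and miPS-NSC, beside 0.25, 0.21 and 0.22 for all genes. Gja1 and Cd44, although known from astrocytes, were thus brighter in these fibroblasts than in fNSC. Named genes had to reach a detection p under 0.05 on 4 or more arrays, so a gene detected in MEF alone is not among them. The shares and medians of all genes against MEF carry this selection.

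For each member the genes with the most similar profile over the 8 arrays were found by the root mean square (RMS) difference of mean-centred log2 values. The points are arrays of 4 groups, so the measure mostly reflects the 4 group levels, and the genes were picked from all 8107 for being closest. Slc1a3 was closest to Ncald, which encodes a neuronal calcium sensor (RMS 0.079), and then to Nkx2-2, a transcription factor gene of the oligodendrocyte lineage (0.231). Slc1a2 was closest to Lgi2 (0.142), Gja1 to Ttc27 (0.216), and Clu to 4930555G01Rik (0.287). Cd44 was closest to Sat1, which encodes an enzyme of polyamine breakdown (0.121), and Aldh1l1 to the kinase gene Cdk14 (0.104). Among the members themselves, the smallest RMS difference was 1.114, for Aldh1l1 and Cd44. These 2 genes did not rise and fall together, with a Pearson correlation of -0.313 over the 8 arrays. The highest correlation among the members was 0.829, for Slc1a3 and Slc1a2, at an RMS difference of 1.934.

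Other astrocyte markers were called in both directions. Of 44 listed, 24 had a named probe and 20 were tested. In pNSC against fNSC, 6 were higher and 3 lower, at a median log2 difference of 0.40. Apoe rose most (at least 35.9-fold), followed by Ndrg2, an astrocyte gene linked to cell growth control (at least 5.54-fold), while the GABA transporter gene Slc6a11 was 4.35-fold lower. In miPS-NSC against fNSC, 5 were higher and 5 lower, at a median of 0.33. Agt, which encodes angiotensinogen, was at least 14.9-fold higher, and Slc6a11 at least 5.48-fold lower. In miPS-NSC against pNSC, 2 were higher and 8 lower, at a median of -0.76: the serine protease gene Htra1 (12.7-fold) and Agt (10.8-fold) were higher, and the zinc transporter gene Slc39a12 was 4.57-fold lower.

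Aldoc, the brain aldolase, gave differences of 0.32, -0.35 and -0.67 among the NSC groups, none a call, and levels at least 175-fold, 219-fold and 137-fold above MEF in fNSC, pNSC and miPS-NSC. Gfap, the filament gene of mature astrocytes, was detected on 1 pNSC array and on no other, and Glul, the glutamine synthetase gene, on 1 miPS-NSC array, so neither was tested. Their values ran from 4.83 to 6.60 for Gfap and from 5.15 to 6.47 for Glul. No named probe was available here for S100b, Aqp4 or Nfia. Names cover only probes that met the detection rule, so whether the arrays hold dimmer probes for them is not known here. In the NSC cultures Slc1a3 was thus very bright, while the named probes of Gfap, Glul and Aldh1l1 lay at or near the detection limit. Gfap and Glul rest on 1 named probe each. Other astrocyte markers were bright there as well, among them Aldoc, Cst3 and Plpp3. Of the 20 tested, 16 to 19 were detected on each NSC array.

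**Figure D4:**
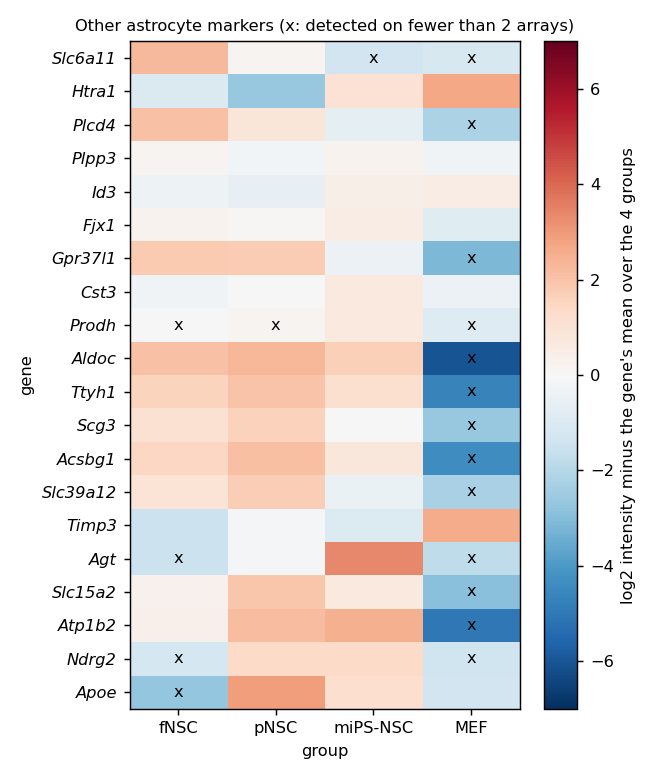
Level of the 20 other astrocyte markers tested, as the group mean of the log2 intensity minus the mean of the gene over the 4 groups (colour), with a cross where the probe was detected on fewer than 2 arrays of the group. Slc6a11 is brightest in fNSC, Apoe in pNSC and Agt in miPS-NSC, and 7 of the 20 were detected on both MEF arrays.

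Calls among further genes of glutamate handling lay near the share of all genes. That share was 11.4% in pNSC against fNSC, 14.1% in miPS-NSC against fNSC and 14.6% in miPS-NSC against pNSC. Of 11 tested genes for glutamate uptake and conversion, members left out, only Aldh4a1, an enzyme of proline breakdown to glutamate, was called in pNSC against fNSC (4.35-fold lower), at a median of -0.04 for the 11. Slc7a11, the cystine and glutamate exchanger gene, was 2.63-fold higher in miPS-NSC than in fNSC and Aldh4a1 2.23-fold lower, at a median of 0.06. In miPS-NSC against pNSC only Slc1a4, a neutral amino acid transporter gene, was called (2.28-fold higher), at a median of 0.22.

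Among 26 tested signals and factors of astrocyte fate, 4 were higher and 3 lower in pNSC against fNSC, at a median of 0.02. The cytokine gene Lif was detected in pNSC only, at a mean of 7.70. It passed the detection filter through pNSC alone, so its differences are not counted as support, although the counts of calls include it. Il6st, which encodes the shared receptor chain of the LIF family, was at least 1.4-fold higher in pNSC. In miPS-NSC against fNSC 5 were higher and 2 lower, at a median of 0.22, with the stress-induced factor gene Atf3 at least 3.71-fold higher and the BMP receptor gene Bmpr1b 3.24-fold lower. In miPS-NSC against pNSC 4 were higher and 1 lower, at a median of 0.14. The BMP target gene Id1 was 4.08-fold higher there, and the lower gene was Lif. Sox9, a factor needed for glial fate, gave differences of -0.25, 0.22 and 0.46, none a call.

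Genes of reactive astrocytes, those responding to injury, were called in both directions. Of 19 tested, the member Cd44 included, 6 were higher and 1 lower in pNSC against fNSC, at a median of 0.44. Against fNSC, 8 were higher in miPS-NSC and 3 lower (median 0.66), and against pNSC 4 were higher and 5 lower (median 0.20). Lcn2, which encodes a secreted protein that binds iron carriers of bacteria, was 8.37-fold higher in pNSC and 21.4-fold higher in miPS-NSC than in fNSC. Cd14 was at least 8.19-fold lower in miPS-NSC than in fNSC. B3gnt5, a glycosyltransferase gene, was 19.1-fold higher in pNSC than in fNSC and at least 24.6-fold below pNSC in miPS-NSC. Of the 15 markers of neural stem cells and radial glia, 1 was higher and 2 lower in pNSC against fNSC (median -0.22), 2 and 5 in miPS-NSC against fNSC (median -0.64), and 1 and 5 in miPS-NSC against pNSC (median -0.88). Nes, the intermediate filament gene of neural stem cells, was 2.38-fold lower in miPS-NSC than in fNSC and 2.05-fold lower than in pNSC.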

How the data were processed

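Mean bead intensities of 25697 probes per array were deposited, per the file headers, with bead standard errors, bead numbers and a detection p-value. GenomeStudio 2009.2 is named in the submitters' processing notes. The values the authors processed and deposited are log2 intensities with equal quantiles on all arrays. They cover 12421 probes, those reaching a detection p under 0.05 on 4 or more arrays, of which 11692 have 1 gene symbol in the platform annotation. Probes outside them have no name here. The background step behind these values and the genome build of the probe design are not given in the sources used here.

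Background correction and normalization used neqc from the limma package, version 3.58.1 (R 4.3.3, data.table version 1.17.8, with Python 3.11.15 and matplotlib 3.10.9 for figures), with the background fitted from the detection p-values, an offset of 16, log2 and quantile normalization. Probes detected at p under 0.01 on both arrays of any group were kept (12478, of which 10958 have a gene), and the brightest kept probe stood for each of 8107 genes. The limma model (lmFit, eBayes) took all 8 arrays together (4 residual and 2.98 prior degrees of freedom), with two-sided p-values adjusted by Benjamini-Hochberg over the 8107 genes, or over the 12478 probes where a single probe is discussed. A fold is written as at least that size where the dimmer group was not detected on both arrays, against the higher of each array's lowest detected value and the probe's own. The method was tested on simulated data. The number of arrays limits the precision.

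The 6 genes and the 15 gene lists were chosen with earlier results of these data known. Named were the members, the 3 largest called differences per comparison among other astrocyte markers, the 2 largest in each other list, and Gfap, S100b, Aqp4, Aldoc, Apoe, Glul, Sox9, Nfia and Nes at any value; not every gene the rule allows is described. The single tested microglia marker, Tmem119, gave no call among NSC groups. The 4 tested endothelial and ependymal markers gave 1 higher and none lower in pNSC against fNSC, 1 and 1 in miPS-NSC against fNSC, and 0 and 3 in miPS-NSC against pNSC. Of these 3, Rsph1 passed the detection filter through pNSC alone, so its difference is not counted as support. Other normalizations, offsets, filters, probe rules, the left-out arrays and a replicate block were tried as alternatives.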

Additional observations from a re-analysis of the deposited data

How the results depend on the processing

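Of 630 values of single genes under alternative settings, 619 kept direction and side of the threshold. The exceptions were the difference of miPS-NSC from pNSC for Slc1a3, 0.13 with median centring, for Cd44, 0.29 with the mean of probes, and for Aldh1l1, -1.37 with the mean of probes. Others were fNSC against MEF for Aldh1l1, 0 in the authors' values and -0.16 with the mean of probes, miPS-NSC against MEF for Aldh1l1, -1.04 with the mean of probes, and pNSC against MEF for Slc1a2, 0.71 without background correction and 0.59 in the authors' values. Leaving out 1 array at a time, miPS-NSC against pNSC ranged from -0.16 to 0.06 for Slc1a3, from -1 to -0.86 for Gja1 and from -1.10 to -0.80 for Aldh1l1, with calls for Gja1 without replicate 1 of pNSC and for Aldh1l1 without replicate 2 of pNSC. The number of members called stayed the same under these omissions except for miPS-NSC against pNSC, 2 to 3.

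Genes called without background correction, in the authors' values and with no fold threshold numbered 436, 446 and 3652 for pNSC against fNSC (928 in the main setting), 548, 566 and 4163 for miPS-NSC against fNSC (1144), and 571, 596 and 4187 for miPS-NSC against pNSC (1186). Against MEF they numbered 2186, 2138 and 6458 for fNSC (3492), 2204, 2177 and 6441 for pNSC (3522), and 2084, 2055 and 6345 for miPS-NSC (3401). With no fold threshold the rule itself admits smaller differences, and for the other settings the cause was not tested. Title endings did not pair the arrays (correlation of deviations -0.00173 to 0.0709), and a replicate block gave 929, 1143, 1185, 3494, 3522 and 3403 calls and changed no call of a member. A block for the slide was not run, since no slide is given in the file headers. Signals near the lowest detected value limit what can be said of Aldh1l1.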
